A study of Mus musculus with 10 samples.

Results

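The genes that start an autophagosome were followed through reprogramming of mouse embryonic fibroblasts (MEFs) with and without added FoxO6, a forkhead transcription factor. The set was chosen by function and by gene symbol, and it holds 10 of the 48476 genes of the series table, namely *Ulk1*, *Ulk2*, *Atg13*, *Rb1cc1*, *Becn1*, *Atg14*, *Pik3c3*, *Vmp1*, *Wipi1* and *Wipi2*. The MEFs came from E13.5 embryos of the CBA/CaJ X C57BL/6J background and carry an Oct4-GFP reporter. All cells received retroviruses for Oct4, Klf4 and Sox2 (OKS) made in PlatE packaging cells and grew in iCD1 medium, and the arms differed in the added virus, the red fluorescent protein DsRed (OKS + DsRed, the control) or FoxO6 (OKS + FoxO6). RNA was sequenced from 1 library for each arm on days 0, 1, 3, 5 and 7 (10 libraries in all), so a difference on a single day has no replicate check. The 5 libraries of an arm may come from 1 infected culture, and every p-value over the days describes these 2 time courses.

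Autophagy is the process in which a cell wraps part of its cytoplasm in a double membrane and delivers it to the lysosome. It is switched on by the ULK complex, in which the kinase ULK1 or its paralogue ULK2 is held by ATG13 and FIP200 (the product of *Rb1cc1*). The kinase activates a lipid kinase complex of VPS34 (*Pik3c3*), Beclin 1 (*Becn1*) and ATG14, which makes phosphatidylinositol 3-phosphate (PI3P) on the endoplasmic reticulum. WIPI1 and WIPI2 read this lipid and VMP1, a membrane protein of the endoplasmic reticulum, helps the young membrane to form and to part from it.

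The libraries held 1208379 to 2225750 expected counts. Levels are given as TPM, a share of transcripts that is scaled to transcript length, and reads are the rounded expected counts. Differences on one day are in log2(TPM + 1), which understates the change of low genes. *Foxo6*, the check of the arm labels, ranged from 0.61 to 2.29 TPM (at most 4 reads) in OKS + DsRed and from 762.11 to 1356 TPM in OKS + FoxO6, and it was already at 1017 TPM at day 0 of that arm. The 10 fibroblast markers summed to 4542 TPM in OKS + DsRed and 4172 TPM in OKS + FoxO6 at day 0 and to 753.61 and 1079 TPM at day 7. In edgeR's quasi-likelihood test 10 of 10 fell with the day, against 10.9% of all genes tested. *Col1a2* made up 262 and 757.61 TPM of the day 7 sums. Over the 5 days 2 of the 10 were higher in OKS + FoxO6 (*Pdgfra*, *Postn*), 2 were lower (*Col3a1*, *Fbln2*) and 6 did not pass. Of all genes tested, 13.6% passed in either direction. The 8 macrophage markers summed to 15.1 to 59.6 TPM and 23.9 to 29.4 TPM in the respective arms, and 4 of them stayed under 1 TPM in every library. The 6 endothelial markers summed to 20.1 to 55.3 TPM in OKS + DsRed and 30.7 to 104 TPM in OKS + FoxO6, with 1 tested (*Tek*), and the 6 neural markers to 136 to 489 TPM and 80.0 to 246 TPM, with *Olig2* at 0. The part of these marker changes in the results was not tested, and in bulk RNA fewer cells of a type and less RNA per cell cannot be told apart.

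All 10 members were expressed and all passed the filter on low counts. By the median TPM over the 10 libraries the order was *Becn1* (173), *Vmp1* (122), *Ulk1* (63.0), *Wipi2* (46.1), *Rb1cc1* (29.1), *Pik3c3* (19.8), *Atg13* (16.5), *Wipi1* (16.3), *Ulk2* (14.0) and *Atg14* (7.38). *Becn1* thus stood at percentile 94.2 of the 14837 genes kept by a minimum mean of 1 TPM, and *Atg14* at percentile 31.2. The ranges of neighbours in this order overlapped, with the exception of the last pair, since the lowest *Ulk2* library (10.3 TPM) lay above the highest *Atg14* library (8.62 TPM). The 10 genes together summed to 351 to 483 TPM in OKS + DsRed and to 562 to 788 TPM in OKS + FoxO6. This sum mostly reflects the most abundant genes. At day 5 of OKS + FoxO6, *Becn1* held 328 and *Vmp1* 231 of the 788 TPM. The ULK complex genes alone summed to 74.3 to 146 TPM in OKS + DsRed and 109 to 163 TPM in OKS + FoxO6, which overlapped. At day 7 their sum was 146 TPM in OKS + DsRed and 121 TPM in OKS + FoxO6.

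**Figure D1:**
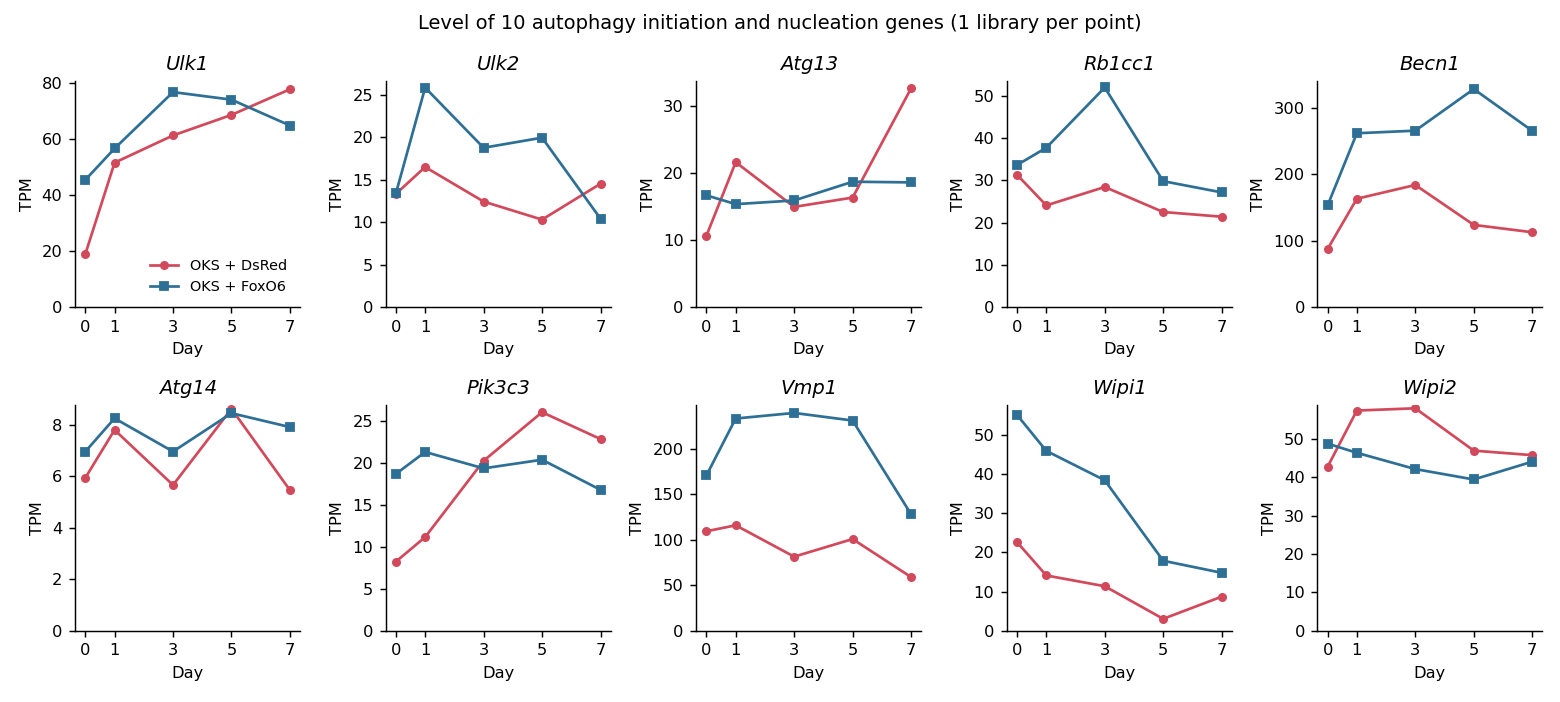
TPM (vertical axes, each from 0) against day for the 10 genes, with 1 point per library, circles for OKS + DsRed and squares for OKS + FoxO6. The *Becn1*, *Vmp1* and *Wipi1* lines of OKS + FoxO6 run above those of OKS + DsRed on all 5 days, *Ulk1* climbs from 18.9 to 77.7 TPM in OKS + DsRed, and the *Atg14*, *Atg13* and *Wipi2* lines of the arms cross or overlap in range.

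To ask whether the arms differed over the course as a whole, a shift shared by the 5 days was fitted to the counts with day as a factor. *Wipi1*, *Vmp1* and *Becn1* were higher in OKS + FoxO6 and no member was lower, so 3 of 10 passed the threshold of an adjusted p of 0.05. Of all 12139 genes tested, 13.6% passed in either direction and 6.69% in the higher direction. Without day 3 or without day 5 the share of all genes was 6.34% and 5.87%, and the count of members remained 3. The median shift was 0.26 on the log2 scale for the members and -0.02 for all genes. *Becn1*, *Vmp1* and *Wipi1* were picked out by the study from these same libraries, so their count is not independent evidence of a direction.

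*Wipi1* (ENSMUSG00000041895) lies on the minus strand of chromosome 11 (GRCm38), 109573331 to 109611967. Its level was 22.6, 14.1, 11.4, 3.05 and 8.71 TPM at days 0, 1, 3, 5 and 7 in OKS + DsRed and 55.1, 45.9, 38.4, 17.9 and 14.8 TPM in OKS + FoxO6. Each OKS + FoxO6 library was above the OKS + DsRed library of its day, while the arms overlapped as a whole because the late OKS + FoxO6 libraries reached the level of the early OKS + DsRed ones. The shift was 1.46 ± 0.21 (log2, SE, adjusted p = 0.00151, edgeR's quasi-likelihood test with Benjamini-Hochberg adjustment), or 2.75-fold. The reads were few at day 5, 6 in OKS + DsRed and 40 in OKS + FoxO6, which gave a ratio of counts per library size of 4.37 with a 95% interval of 1.84 to 12.6 (exact Clopper-Pearson). At day 7 the ratio was 1.65 and its interval of 0.910 to 3.05 included 1. Such intervals cover counting error only.

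*Vmp1* (ENSMUSG00000018171) is on the minus strand of the same chromosome, at 86583865 to 86683836. It was measured at 109, 116, 81.4, 101 and 59.0 TPM at days 0, 1, 3, 5 and 7 in OKS + DsRed and at 171, 233, 239, 231 and 128 TPM in OKS + FoxO6. It was the one member whose arms did not overlap, as the lowest OKS + FoxO6 library lay above the highest OKS + DsRed library, a pattern seen in 1.96% of those 14837 genes. The shift was 0.90 ± 0.14 (log2, SE, adjusted p = 0.00193 by edgeR), or 1.87-fold. *Mir21a*, which lies inside *Vmp1* on the same strand, had 0 counts, and the pseudogene *Gm11478* within it had at most 3 counts.

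*Becn1* (ENSMUSG00000035086), the scaffold of the lipid kinase complex, is also on the minus strand of chromosome 11, at 101285952 to 101302286. It rose from 87.5 TPM at day 0 of OKS + DsRed to 163, 184, 124 and 113 TPM on the later days, and had 153, 262, 266, 328 and 265 TPM at days 0, 1, 3, 5 and 7 in OKS + FoxO6. The OKS + FoxO6 libraries were the higher ones on each day, and the arms overlapped through the day 0 library of OKS + FoxO6. The shift was 0.88 ± 0.13 (log2, SE, adjusted p = 0.00153 by edgeR), or 1.85-fold. The size at day 5 depended on the scale, because the TPM ratio was 2.65 while the ratio of counts was 1.75 (95% counting interval 1.49 to 2.06). The effective transcript length that divides the counts was 2455 nucleotides in the OKS + DsRed library of that day and 1667 in the OKS + FoxO6 library. *Cntd1* overlaps *Becn1* on the opposite strand and had at most 4.59 counts.

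**Figure D2:**
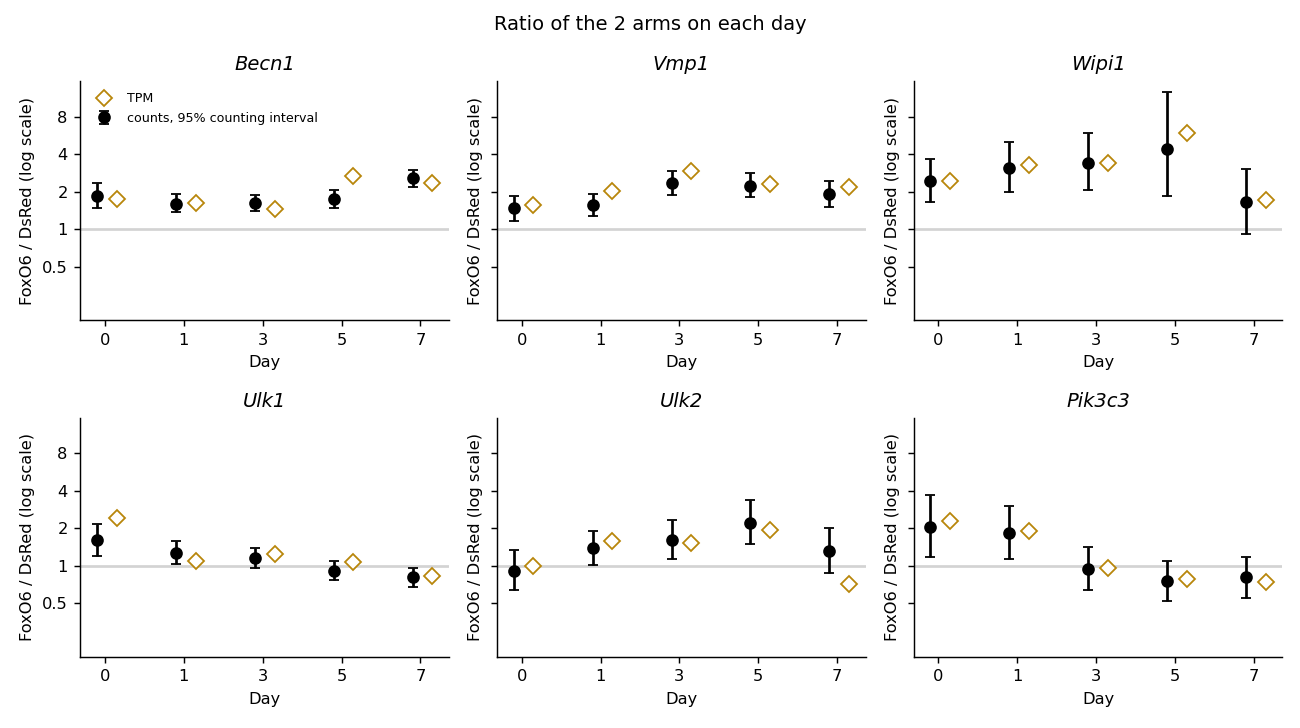
Ratio of OKS + FoxO6 to OKS + DsRed on each day (vertical axis, log scale) for 6 members, as counts per library size with 95% counting intervals (filled circles) and as TPM (open diamonds), and with a grey line at 1. All *Becn1*, *Vmp1* and *Wipi1* points lie above the line, *Ulk1* and *Pik3c3* pass from above it to below it, and the TPM and count ratios of *Ulk2* lie on opposite sides of it at day 7.

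RefSeq promoters, from 250 bases before to 50 bases after a transcript start, matched 7 of the 10 members with 9 windows. Those of *Wipi1* and *Vmp1* are shown because these genes had the largest shifts, from base -250 to base -1, 5′ to 3′ on the minus strand of GRCm38.p6, with CG dinucleotides in capitals. The *Wipi1* stretch is chr11:109611390-109611639 and the *Vmp1* stretch, before the first of its 3 listed starts, is chr11:86683837-86684086. The *Wipi1* stretch lies inside the gene span given above, so its RefSeq start differs from the outer end of that span. The windows of *Atg14* and *Wipi2* also lie inside their gene spans.
Wipi1: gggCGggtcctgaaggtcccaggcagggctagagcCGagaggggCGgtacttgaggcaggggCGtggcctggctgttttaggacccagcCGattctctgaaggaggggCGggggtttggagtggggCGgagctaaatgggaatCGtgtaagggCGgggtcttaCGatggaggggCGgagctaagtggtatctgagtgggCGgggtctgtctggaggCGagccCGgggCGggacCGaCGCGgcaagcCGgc
Vmp1: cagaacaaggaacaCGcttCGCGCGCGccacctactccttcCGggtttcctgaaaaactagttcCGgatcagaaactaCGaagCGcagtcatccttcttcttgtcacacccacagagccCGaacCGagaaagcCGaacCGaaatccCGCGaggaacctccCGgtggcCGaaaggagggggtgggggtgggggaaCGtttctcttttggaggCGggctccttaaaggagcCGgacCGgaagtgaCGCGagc
They hold 19 and 23 CG dinucleotides. Over whole windows the members had 1 to 45, with the lowest at an inner start of *Vmp1* and the highest at *Ulk2*, against a median of 7 over all 32851 promoters. The exact strings GTAAACA, a forkhead motif, and CAAAACAA, the insulin response element, share the letters AAACA. They were searched on both strands and were found in 0 of the 9 windows, against 3.65% and 2.51% of all promoters. Other forms of the forkhead motif were not searched. The E-box CACGTG, which reads the same on both strands, was in 7.15% of all promoters and, among the members, in the *Atg14* window, where it starts 1 base before the transcript start. The windows of *Becn1*, *Rb1cc1* and *Pik3c3* were not analysed here.

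Among the ULK kinases the shift did not pass the threshold. *Ulk1* (ENSMUSG00000029512, chromosome 5, 110784488 to 110810097, minus strand) had 18.9, 51.5, 61.3, 68.6 and 77.7 TPM at days 0, 1, 3, 5 and 7 in OKS + DsRed and 45.4, 56.6, 76.7, 74.0 and 64.8 TPM in OKS + FoxO6. The day 0 library of OKS + DsRed stood low and the other 9 libraries lay between 45.4 and 77.7 TPM. The shift was 0.13 ± 0.15 (log2, SE, adjusted p = 0.627 by edgeR). At day 0 the count ratio was 1.60 (95% counting interval 1.20 to 2.16), and at day 7 it was 0.810 (0.682 to 0.960). With the length trend removed, an alternative chosen after seeing the data, the day 7 difference was -0.05 on the log2 scale.

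*Ulk2* (ENSMUSG00000004798, chromosome 11, 61775649 to 61855073, minus strand) had 13.3, 16.5, 12.4, 10.3 and 14.5 TPM in OKS + DsRed and 13.4, 25.9, 18.8, 19.97 and 10.4 TPM in OKS + FoxO6 on the same days. By TPM the arms were nearly level at day 0, OKS + FoxO6 was the higher one at days 1, 3 and 5, and OKS + DsRed was the higher one at day 7. The shift was 0.51 ± 0.19 (log2, SE) and missed the threshold (adjusted p = 0.0961 by edgeR). It passed without day 0, at 0.67 with an adjusted p of 0.0379. At day 7 the scales went opposite ways, with a TPM ratio of 0.717 and a count ratio of 1.32 (95% counting interval 0.877 to 1.995), and the effective length was 3393 nucleotides in OKS + DsRed and 5682 in OKS + FoxO6.

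By TPM, *Ulk1* made up 58.7% of the summed *Ulk1* and *Ulk2* level at day 0 of OKS + DsRed and 75.7% to 86.9% on its later days. In OKS + FoxO6 this share was 77.2% at day 0 and 68.6% to 86.1% afterwards. *Ulk1* was thus the more abundant kinase transcript in all 10 libraries.

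Neither partner of the kinases passed the test of the shift. *Rb1cc1* (ENSMUSG00000025907, chromosome 1, 6206197 to 6276648, plus strand) had 31.4, 24.1, 28.5, 22.5 and 21.4 TPM in OKS + DsRed and 33.7, 37.8, 52.0, 29.8 and 27.2 TPM in OKS + FoxO6 at days 0, 1, 3, 5 and 7. By TPM the OKS + FoxO6 library was the higher one on all 5 days, whereas by counts it was the lower one at day 7, with a ratio of 0.840 (95% counting interval 0.604 to 1.16) and effective lengths of 4505 nucleotides in OKS + DsRed and 2712 in OKS + FoxO6. After removal of the length trend the day 7 difference was 0.04 on the log2 scale, so its direction depended on the scale. The shift was 0.32 ± 0.15 (log2, SE, adjusted p = 0.178 by edgeR), and without day 7 it was 0.45 with an adjusted p of 0.0343. The antisense gene *4732440D04Rik* overlaps *Rb1cc1* with at most 19.3 counts, and as the strand of counting was not stated the reads of such a pair cannot be told apart.

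*Atg13* (ENSMUSG00000027244, chromosome 2, 91674618 to 91710576, minus strand) ranged from 10.7 to 32.6 TPM in OKS + DsRed and from 15.3 to 18.7 TPM in OKS + FoxO6. Its highest library was day 7 of OKS + DsRed, where the count ratio of OKS + FoxO6 to OKS + DsRed was 0.658 (95% counting interval 0.456 to 0.938). The shift was -0.10 ± 0.20 (log2, SE, adjusted p = 0.799 by edgeR).

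Of the lipid kinase complex, *Becn1* alone passed the test of the shift. *Pik3c3* (ENSMUSG00000033628, chromosome 18, 30272747 to 30348126, plus strand), the catalytic subunit, had 8.24, 11.2, 20.2, 26.0 and 22.8 TPM in OKS + DsRed and 18.7, 21.3, 19.4, 20.4 and 16.8 TPM in OKS + FoxO6 at days 0, 1, 3, 5 and 7. OKS + DsRed started low and climbed past OKS + FoxO6, which stayed within a narrow band. The count ratio was 2.04 at day 0 (95% counting interval 1.18 to 3.71) and 0.759 at day 5 (0.525 to 1.10). The shift was 0.16 ± 0.24 (log2, SE, adjusted p = 0.725 by edgeR).

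*Atg14* (ENSMUSG00000037526, chromosome 14, 47540893 to 47570649, minus strand), which brings the complex to the site of autophagosome formation, had 5.46 to 8.62 TPM in OKS + DsRed and 6.96 to 8.45 TPM in OKS + FoxO6. It rested on 13 to 29 reads per library, and the shift was 0.20 ± 0.24 (log2, SE, adjusted p = 0.650 by edgeR).

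*Wipi2* (ENSMUSG00000029578, chromosome 5, 142627698 to 142670588, plus strand), is the paralogue of *Wipi1*, and its shift did not pass the threshold. It had 42.7, 57.4, 58.0, 46.9 and 45.8 TPM in OKS + DsRed and 48.8, 46.4, 42.1, 39.4 and 44.1 TPM in OKS + FoxO6 at days 0, 1, 3, 5 and 7, and the shift was -0.02 ± 0.12 (log2, SE, adjusted p = 0.940 by edgeR). In both arms *Wipi1* took a smaller part of the summed *Wipi1* and *Wipi2* TPM late than early. Its share was 34.6%, 19.7%, 16.4%, 6.10% and 16.0% in OKS + DsRed and 53.0%, 49.8%, 47.7%, 31.2% and 25.1% in OKS + FoxO6.

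**Figure D3:**
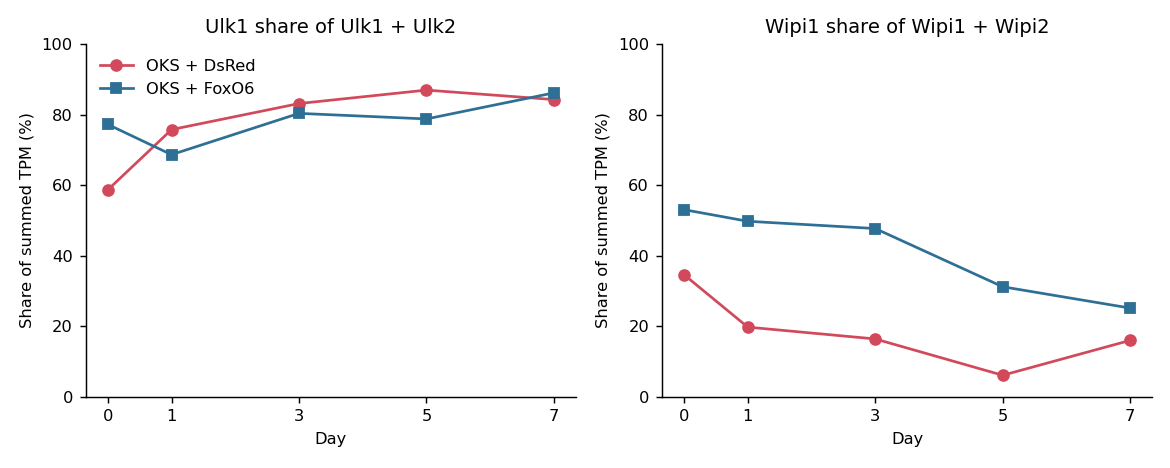
Share (%, from 0 to 100) of *Ulk1* in the summed TPM of *Ulk1* and *Ulk2* (left) and of *Wipi1* in that of *Wipi1* and *Wipi2* (right) against day, 1 library per point, circles for OKS + DsRed and squares for OKS + FoxO6. The *Ulk1* share lies between 58.7% and 86.9%, and the *Wipi1* share of OKS + FoxO6 lies above that of OKS + DsRed on all 5 days.

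To follow the members in time, a slope shared by the arms was fitted with day as a number. *Ulk1* rose, *Wipi1* and *Rb1cc1* fell, and the other 7 did not pass the threshold, while 21.1% of the 11677 genes tested passed in either direction, 10.2% rising and 10.9% falling. *Wipi1* fell by 0.26 ± 0.05 per day (log2, SE, adjusted p = 0.00357 by edgeR), alongside the fibroblast markers. *Ulk1* rose by 0.15 ± 0.04 per day (log2, SE, adjusted p = 0.0138 by edgeR), and without day 0 the slope was 0.09 with an adjusted p of 0.0793. *Rb1cc1* fell by 0.10 ± 0.03 per day (log2, SE, adjusted p = 0.0491 by edgeR). This last call was lost in 9 of 12 alternatives, among them leaving out day 1, 3, 5 or 7, where the slope was -0.08, -0.10, -0.11 and -0.05.

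**Figure D4:**
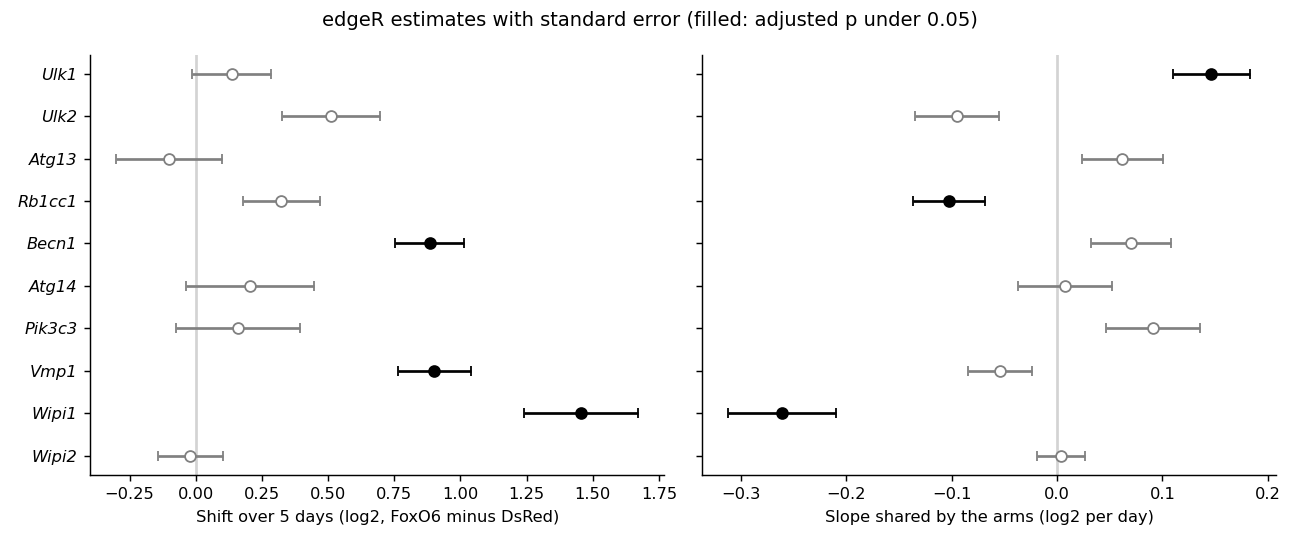
Shift of OKS + FoxO6 against OKS + DsRed over 5 days (left, log2) and slope shared by the arms (right, log2 per day) of the 10 members, as edgeR estimates with bars of 1 standard error. Filled points have an adjusted p under 0.05, which on the left are *Becn1*, *Vmp1* and *Wipi1* to the right of 0, and on the right *Ulk1* above 0 and *Rb1cc1* and *Wipi1* below 0.

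Whether the courses parted with time was tested as a difference in slope. No member passed, and neither did any of the 12139 genes (0.0%), with edgeR's quasi-likelihood test, where 1030 genes had an unadjusted p under 0.05. DESeq2 called 29 genes and limma 0, and 0 of these were members. The slope of *Pik3c3* differed by -0.21 ± 0.07 per day (log2, SE, OKS + FoxO6 minus OKS + DsRed, adjusted p = 0.493 by edgeR), and this was the 1 member with an unadjusted p under 0.05.

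Within each arm the later days were also set against day 0, with no test. In OKS + DsRed 1, 3, 3 and 4 of the 10 members were past 2-fold at days 1, 3, 5 and 7, against 23.6%, 30.8%, 34.1% and 32.3% of all genes. In OKS + FoxO6 it was 0, 0, 2 and 1 member, against 17.2%, 22.4%, 26.5% and 31.2%. By TPM, *Ulk1* was 2.72-fold its day 0 level at day 1 and 4.10-fold at day 7 in OKS + DsRed, and 1.25-fold and 1.43-fold in OKS + FoxO6. By counts the day 1 ratio in OKS + DsRed was 1.76 (95% counting interval 1.30 to 2.41), the effective length was 5152 nucleotides at day 0 and 3770 at day 1, and with a prior count of 2 on the counts 0 members passed 2-fold on that day, against 19.8% of all genes. *Pik3c3* reached 3.16-fold at day 5 in OKS + DsRed and 1.09-fold in OKS + FoxO6, and *Atg13* reached 3.06-fold and 1.12-fold at day 7. The day 0 library of OKS + DsRed, to which these folds refer, held the lowest *Ulk1*, *Atg13* and *Pik3c3* level of all 10 libraries.

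Day by day, with no test, members past 2-fold between the arms were all higher in OKS + FoxO6. For day 0 they were *Ulk1*, *Pik3c3* and *Wipi1* (3 of 10), where 16.7% of all genes were past 2-fold and 10.4% were higher. For day 1 they were *Vmp1* and *Wipi1* (2 of 10), with 17.3% and 7.95% of all genes. The same pair passed on day 3 (2 of 10), with 19.9% and 8.16%. For day 5 they were *Becn1*, *Vmp1* and *Wipi1* (3 of 10), with 21.5% and 10.2%, and for day 7 *Becn1* and *Vmp1* (2 of 10), with 24.5% and 8.25%. As *Becn1*, *Vmp1* and *Wipi1* were picked out by the study from these libraries, these daily counts are not independent evidence of a direction. With log2 counts per library size and a prior count of 2 in place of TPM, 1 of 10 members passed at day 0 and at day 1 (*Wipi1*) and 1 at day 7 (*Becn1*), against 12.6%, 13.9% and 20.9% of all genes on that scale. *Pik3c3* at day 0 was just under 2-fold on it, at 0.97, while its count ratio without the prior count was 2.04. At day 5, 3 of 10 passed on it, against 18.2% of all genes, with *Ulk2* (1.11) in the place of *Becn1* (0.80).

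The median difference of the members, in log2(TPM + 1), was 0.62, 0.62, 0.42, 0.29 and 0.14 in day order. The median of all genes was 0.09, 0.0, 0.0, 0.0 and -0.14 on these days. At day 7 with counts the median was 0.27 for the members, of which 6 of 10 were higher, and -0.01 for all genes, of which 46.9% were higher. With the length trend removed as well, the day 7 medians were 0.50 and 0.01, and 7 of 10 members and 50.5% of all genes were higher. In TPM, 10, 8, 8, 7 and 5 of the 10 members were higher in OKS + FoxO6 at days 0, 1, 3, 5 and 7, against 55.3%, 47.8%, 48.5%, 50.1% and 40.7% of all genes. On counts 9, 8, 8 and 6 of 10 were higher at days 0, 1, 3 and 5, against 48.4%, 46.4%, 47.5% and 47.8% of all genes. The medians of the members there were 0.51, 0.49, 0.38 and 0.25. After removal of the length trend 8, 8, 8 and 6 were higher, against 50.7%, 50.7%, 50.7% and 50.5%, with medians of 0.47, 0.51, 0.37 and 0.22. *Becn1*, *Vmp1*, *Wipi1* and *Rb1cc1* were higher on all 5 days (4 of 10, against 9.86% of all genes), of which *Rb1cc1* was lower at day 7 by counts without that trend removed. This count also holds the genes picked out by the study from these libraries, so it is not independent evidence either.

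The genes around these complexes were taken from 6 lists of 50 genes, of which 47 were tested, without *Rubcnl*, *Atg10* and *Deptor*. In the shift, 1 was higher in OKS + FoxO6, 2 were lower and 44 did not pass, so 3 of 47 were called against 13.6% of all genes. Of the estimates, 32 of 47 were above 0, with a median of 0.13 (log2) against -0.02 for all genes. The median shift was 0.33 for the 6 other PI3P effectors and phosphatases, 0.29 for the 10 genes of the conjugation machinery, 0.14 for the 6 partners of the lipid kinase complex, 0.11 for the 6 initiation and vesicle partners, 0.03 for the 14 upstream kinases and TSC genes and -0.17 for the 5 BCL2 family partners of Beclin 1. Leaving out day 1, day 3 or day 5 left 1 call among these genes each time, with 9.58%, 6.34% and 5.87% of all genes called in these fits.

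The gene that was higher was *Zfyve1*, which encodes DFCP1, a PI3P-binding protein that marks the membrane where autophagosomes form. It had 13.4, 19.1, 25.6, 15.3 and 17.0 TPM in OKS + DsRed and 31.0, 41.2, 39.3, 39.9 and 20.2 TPM in OKS + FoxO6, higher on each day, with a shift of 0.89 ± 0.17 (log2, SE, adjusted p = 0.00597 by edgeR). The next largest was the WIPI relative *Wdr45*, at 0.55 ± 0.23 (log2, SE, adjusted p = 0.141), which did not pass.

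*Bcl2*, whose product binds Beclin 1, had 6.64, 12.01, 15.6, 11.1 and 8.86 TPM in OKS + DsRed and 5.98, 5.80, 6.62, 6.37 and 5.12 TPM in OKS + FoxO6. The lowest OKS + DsRed library (6.64 TPM, day 0) was barely above the highest OKS + FoxO6 library (6.62 TPM, day 3). The shift of *Bcl2* was -0.84 ± 0.18 (log2, SE, adjusted p = 0.0119 by edgeR). *Prkag2*, a regulatory subunit of AMP-activated kinase, had 13.3 to 32.9 TPM in OKS + DsRed and 10.2 to 16.7 TPM in OKS + FoxO6, with a shift of -0.75 ± 0.22 (log2, SE, adjusted p = 0.0449 by edgeR), from 14 to 46 reads per library.

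Last, the genes with the profile most like those of the 3 most variable members were found among 11421 genes whose mean reached 5 TPM, by the root mean square difference of centred log2(TPM + 1) over the 10 libraries. For *Wipi1* they were *Crim1* (0.439), *Lmbr1* (0.440) and *Axl* (0.460). For *Vmp1* they were *Sbno2* (0.168), *Grk5* (0.183) and *Cldn12* (0.190). For *Becn1* they were *Grina* (0.147), *Ttyh2* (0.153) and *Rab43* (0.155). On counts per library size 0, 0 and 1 of the 3 genes remained.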

How the data were processed

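RNA-seq was analysed for 10 libraries, grouped by the titles in the labels into OKS + DsRed and OKS + FoxO6 at 5 days, with 1 library each. The authors used RSEM with bowtie2 and the GENCODE M13 transcripts (mm10), with versions not given in the sources used here, and deposited expected counts, which are not normalized. The deposited TPM values and effective lengths come from the same RSEM runs. The labels name a VAHTS kit and the methods a TruSeq kit, and the strand of counting is not stated. Expected counts of the series table and of the files per library were identical, and the 2124 genes found only in the latter held at most 0.312% of a library. Coordinates are from GENCODE M21 (GRCm38) and promoters from RefSeq tables (GRCm38.p6).

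Expected counts were rounded. R 4.3.3 with edgeR 4.0.16 (glmQLFit, glmQLFTest, TMM, filterByExpr with the design) fitted the shift (day as a factor plus arm), the shared slope (arm plus day) and the difference in slope, with Benjamini-Hochberg adjustment over all genes tested and a threshold of 0.05. DESeq2 1.42.0 and limma 3.58.1 were alternatives. The scripts were tested on simulated data. Differences in log2(TPM + 1), exact 95% intervals of count ratios scaled to TMM library size, and promoter motifs were computed in Python 3.11.15 (scipy 1.17.1, pandas 2.3.3, numpy 2.4.6, statsmodels 0.14.6), and matplotlib 3.10.9 drew the figures. The background of the 2-fold counts was every gene whose mean reached 1 TPM.

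The members and lists were chosen with earlier results of these data known. The text names all members, *Foxo6*, pathway genes past the threshold of the shift or with the 2 largest shifts either way, and the 3 genes of nearest profile for the 3 members with the largest SD. Alternatives were other size factors, tools, filters, pseudocounts, units, time scales, leaving out each day in turn, dropping the day term and offsets for effective length. An offset for the trend of each library with length was added after seeing the data.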

Additional observations from a re-analysis of the deposited data

Results flagged for a closer look

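*Wipi2* moved in opposite directions in the arms by TPM. In OKS + DsRed every later library lay above its day 0, with a mean change of 0.27 in log2(TPM + 1), and in OKS + FoxO6 every later library lay below its day 0, with a mean change of -0.18, a difference of -0.45 between the arms. This difference was not tested as such, and the slopes of the arms differed by 0.02 ± 0.04 per day (log2, SE, adjusted p = 0.942 by edgeR). In log2 counts per library size the changes at days 1, 3, 5 and 7 were 0.01, 0.26, 0.05 and -0.01 in OKS + DsRed and -0.13, -0.06, -0.06 and 0.08 in OKS + FoxO6, so on that scale the split by direction was seen at days 1, 3 and 5 and not at day 7. The changes there were small, and with the length trend removed, an alternative chosen after seeing the data, the split in that direction was seen at day 3 alone. The effective length of *Wipi2* ranged from 2971 to 4505 nucleotides among the libraries. Groups of 1 library cannot be tested for outlying samples.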

How the results depend on the processing

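The 3 members past the threshold of the shift became 1 without the day term (1.53% of all genes), *Vmp1*, since *Becn1* (0.87 ± 0.22, adjusted p = 0.0757) and *Wipi1* (1.47 ± 0.48, adjusted p = 0.162) missed it with a larger SE, and 3 to 4 under the other alternatives, each day left out among them, with 5.87% to 16.7% of all genes. *Ulk2* passed with no filter (adjusted p = 0.0490). The 3 slope calls became 1 with limma on log2(TPM + 1), where 17.2% of all genes were called and *Ulk1* had an adjusted p of 0.0579, and 2 to 3 elsewhere, with 12.4% to 24.6% of all genes. *Ulk2* had a slope of -0.14 (adjusted p = 0.0301) without day 0. Members past 2-fold fell to 1 at day 0, 1 at day 1 and 1 at day 7, both on TMM-scaled CPM (prior count 2) and with the length trend removed, an alternative chosen after seeing the data. The shares of all genes past 2-fold on these days were 12.6%, 13.9% and 20.9% on CPM and 12.4%, 13.8% and 19.8% with the trend removed.

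Of all genes, the 1652 shift calls became 929 with limma, 762 without day 3, 698 without day 5 and 168 with no day term. The 2469 slope calls became 1596 without day 5. The 0 calls for a difference in slope became 29 with DESeq2, 6 with no filter and 1 without day 1. Pathway calls ranged from 0 to 4 for the shift (1.53% to 16.7% of all genes) and from 1 to 9 for the slope (12.4% to 24.6%). No called result reversed, and the cause of these changes was not tested. The labels carry no replicate numbers, and the day factor of the shift pairs the libraries by day. Depth limits *Atg14* and *Wipi1* most, with libraries of 13 and 6 reads.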

Other observations

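Among the pathway genes, 4 of 47 passed the test of the slope shared by the arms, 2 rising and 2 falling, against 21.1% of all genes. *Bnip3*, a mitophagy receptor of the BCL2 family, rose by 0.34 ± 0.08 per day (log2, SE, adjusted p = 0.0103 by edgeR). It had 4.16, 17.1, 8.32, 63.5 and 83.7 TPM at days 0, 1, 3, 5 and 7 in OKS + DsRed and 10.7, 25.6, 30.3, 24.2 and 28.3 TPM in OKS + FoxO6, and its lowest library rested on 4 reads. The PI3P phosphatase *Mtmr14* rose by 0.11 ± 0.03 per day (adjusted p = 0.0273 by edgeR), while *Mtm1*, another enzyme of that family, fell by 0.23 ± 0.07 per day (adjusted p = 0.0295 by edgeR). *Atg4c*, a protease of the conjugation machinery, fell by 0.13 ± 0.04 per day (adjusted p = 0.0430 by edgeR). These 4 genes were named after their values were seen. Leaving out day 1, day 3 or day 5 left 1 slope call among the pathway genes each time, with 14.5%, 19.0% and 13.4% of all genes called in these fits.

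The endothelial marker *Tek* had a shift of 0.96 ± 0.13 (log2, SE, adjusted p = 0.00112 by edgeR), with 16.8 to 47.3 TPM in OKS + DsRed and 27.6 to 104 TPM in OKS + FoxO6. The other 5 endothelial markers did not pass the filter on low counts. Of the 2 neural markers tested, *Stmn2* was lower in OKS + FoxO6, with a shift of -1.14 ± 0.27 (log2, SE, adjusted p = 0.0190 by edgeR).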
